A study of Mus musculus with 17 samples.

Results

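Long noncoding RNA of the mouse right ventricle (RV) was compared between postnatal day 7 (P7) and postnatal day 3 (P3). The comparison held 5 of the 17 libraries of the series, 2 from the RV at P7 and 3 from the RV at P3, which were chosen by their titles, and all rows of their tables were used. All libraries came from male C57Bl/6 mice, with no treatment and no genetic change named in the labels. Per the labels, P7 is an age at which most cardiomyocytes have finished differentiating, P3 is a transition, and P0 lies before the ductus arteriosus closes. For the same step in the left ventricle (LV) there were 3 libraries at P7 and 3 at P3, and the RV at P0 had 3 libraries that show where each RNA started. The 3 LV libraries at P0 entered the common model and the description of all 17 libraries, and are in no comparison. The labels call the replicates biological. They do not say whether a library holds one animal or several, or whether LV and RV libraries share animals, so the p-values measure the spread between these libraries.

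After birth the lungs take over gas exchange, pressure in the pulmonary circulation falls, and the RV comes to work against a lower load than the LV. In the same days cardiomyocytes leave the cell cycle, exchange fetal for adult contractile proteins and rely less on glycolysis and more on fatty acid oxidation. Long noncoding RNAs are transcripts without a long open reading frame. Some of them act in the nucleus on chromatin or on neighbouring genes, some in the cytoplasm on mRNAs, and for most no function is known.

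Each library had 1 table with the same 23940 rows, of which 21905 carried a NONCODE identifier (a catalogue of noncoding RNA) and 2035 an assembler identifier beginning with TCONS. The tables do not pair identifiers with gene names, so features are given by identifier and position, their functions are not described, and cell type markers could not be checked. Positions are printed as the tables give them and are taken to be on the older assembly mm9. The unit was taken to be FPKM, a fragment count divided by the length of the feature and the depth of the library, which corresponds to a depth of 13.8 to 19.5 M fragments in the 5 libraries. Between 34.1% and 49.2% of the rows were listed at 0 in a library, and Pearson's r between libraries of the same RV group ran from 0.880 to 0.913 over the rows tested.

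The libraries also differed in a way that the groups do not explain. The mitochondrial row NONMMUT071594, which overlaps mt-Co3, mt-Nd3 and mt-Nd4l, stood between 132 and 247 FPKM in 6 libraries and between 7.93 and 25.8 FPKM in the other 11. The labels name no batch, and these are called the high and the low library set here. Both RV libraries at P7 belonged to the low set. At P3, RV replicates 1 and 3 belonged to the high set and replicate 2 to the low set, so that age and set were partly confounded. In the LV, replicates 1 and 3 at P3 were likewise in the high set. LV replicate 2 at P3 and all LV libraries at P7 were in the low set. RV P3 replicate 2 also had the lowest depth of all 17 libraries, 13.8 M fragments, the largest share of rows at 0, 49.2%, and a score of 57.7 on the third principal component, where the other libraries lay between -16.2 and 10.9.

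Of 11079 features tested, 82 differed between the RV at P7 and the RV at P3, a share of 0.74%. Of these, 25 were higher at P7, which is 0.226% of the features tested, and 57 were lower at P7, which is 0.514%. A feature was called at a Benjamini-Hochberg adjusted p under 0.05 in limma on log2(FPKM + 0.1). In all 82 the P7 and P3 libraries did not overlap, which was also true of 5.09% of all features in the direction higher at P7 and 20.5% in the direction lower at P7. Summed over the 25 features that rose, the level was 93.4 to 132 FPKM per P7 library, against 32.0 to 35.0 FPKM per P3 library. Summed over the 57 that fell, it was 162 to 184 FPKM per P7 library, against 379 to 410 FPKM per P3 library. In RNA from a whole ventricle, fewer cells of a type and less RNA per cell cannot be told apart.

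Among the 25 that rose, 18 (72%) had a mean under 0.5 FPKM at P3, a share close to the 74.3% of all features tested, and 3 were listed at 0 in all 3 P3 libraries. For the other 22 the median log2 change was 2.07, within a range of 1.10 to 3.40. At P3, 20 of the 57 that fell (35.1%) had a mean of 5 FPKM or more, beside 3.22% of all features tested. Among the 25 that rose it was 2, but P3 is by selection the high end of a fall and the low end of a rise. At P7, 9 of the 57 and 4 of the 25 had a mean of 5 FPKM or more, beside 2.62% of all features tested. At P7, 24 of the 57 (42.1%) had a mean under 0.5 FPKM, beside 78.3% of all features tested, and 4 were listed at 0 in both libraries. The median log2 change of the other 53 was -1.40, and their changes ran from 0.71 to 4.35 in size. Over all features tested the median was -0.22 and 68.2% lay below 0, so the whole distribution was displaced towards lower values at P7. Giving every library the same median added 0.24 to each log2 change. It left 63 calls, 0.569% of the features tested, 38 higher and 25 lower. That shift is smaller than the size of any change among the 82, so no sign could change. It enlarged every rise and reduced every fall. The call remained for 25 of the 25 that rose and 25 of the 57 that fell.

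The number of calls depended on single libraries. Without RV P7 replicate 1 there were 12 calls, and 59 without RV P7 replicate 2. Without RV P3 replicate 1, 2 or 3 there were 43, 37 (0.334% of the features tested) and 49. Of the 25 features named below, 5 and 13 kept their call without RV P7 replicate 1 or 2, and 18, 15 and 18 without RV P3 replicate 1, 2 or 3. None changed sign, which the lack of overlap between the groups had fixed. TCONS_00049214, NONMMUT059684, NONMMUT029111 and TCONS_00038901 kept their call in all 5 cases. The 2 P7 libraries differed from each other by a median of 0.41 (log2) over the features that rose and 0.40 over those that fell, against 0.42 over all features tested.

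**Figure D1:**
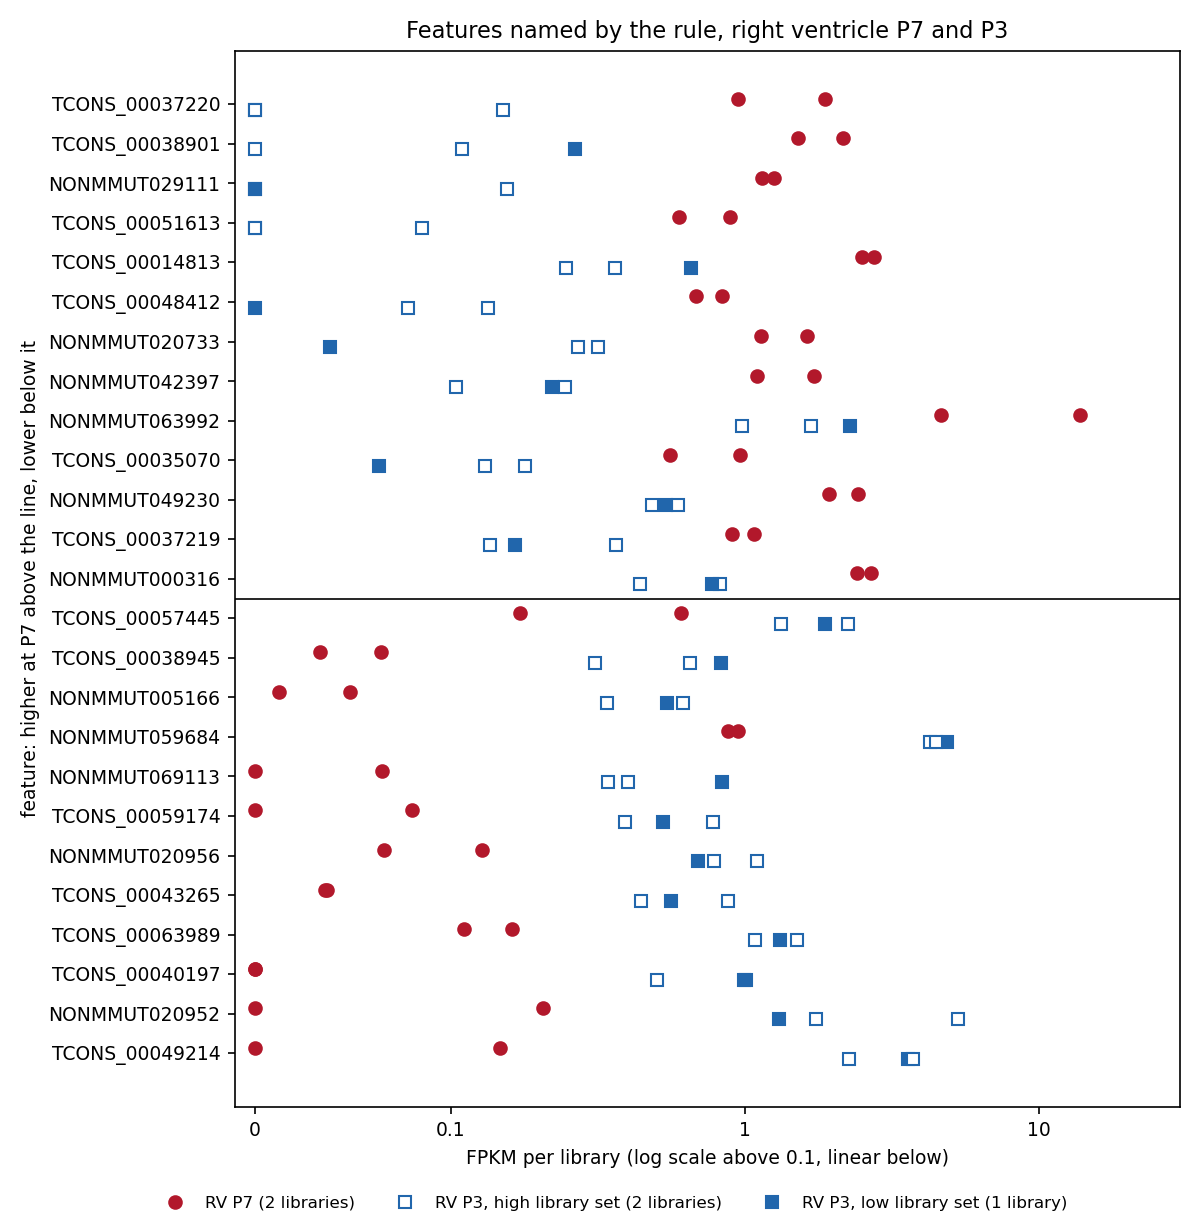
FPKM of the named features in each RV library, with P7 as filled circles and P3 as squares (open for the 2 libraries of the high set, filled for the 1 of the low set), on an axis that is logarithmic above 0.1. Features above the line rose and those below it fell, and in each of them all P7 libraries lie on one side of all P3 libraries.

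The plot of single libraries shows the 25 features named by rule, 13 that rose and 12 that fell. The features that fell are described by where they stood at birth. At P0, 13 of the 57 had an RV mean more than 1.5 times that at P3, 26 were within 1.5 times of it and 18 were lower than it by more than 1.5 times. The P0 libraries were not tested against P3 here, because that step shares the P3 libraries with the present one, and their values are given as levels.

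The 13 features that were already higher at P0 went on falling after P3. TCONS_00049214 (chr6:87387308-87387671), which had the largest change of all, had 27.6, 17.2 and 36.4 FPKM at P0, 2.26, 3.59 and 3.71 FPKM at P3, and 0 and 0.147 FPKM at P7. Each age lay clear of the next, and the low values at P7 rest on an implied 0 and 1 fragments, against 16, 18 and 22.5 at P3. On the log2 scale it fell by 4.35 ± 0.39 (SE) between P3 and P7, with a limma adjusted p of 9.46e-06, and it kept the call in all 24 alternatives in which it was tested (log2 change -3.70 when RV P7 replicate 1 was left out and -5.005 when replicate 2 was).

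NONMMUT020952 (chr14:55590746-55591524) had 18.99, 27.8 and 37.1 FPKM at P0, 5.304, 1.304 and 1.73 FPKM at P3, and 0 and 0.206 FPKM at P7. At P3 its replicate 1 was more than 3 times as high as the other 2, yet no P3 library came near the P7 values. It fell by 3.78 ± 0.57 (SE; limma adjusted p = 0.00276). The log2 change was -3.15 with the library set in the model (limma adjusted p = 0.0118) and -3.00 within the low set (limma adjusted p = 0.0817). Without RV P7 replicate 1, the library at 0, it was -2.97 and the call was lost (limma adjusted p = 0.122). It was -4.59 when RV P7 replicate 2 was left out. NONMMUT020956 lies under 10 kb away on the same chromosome (chr14:55600011-55600850) and had 1.601, 4.11 and 3.38 FPKM at P0, 1.1, 0.691 and 0.786 FPKM at P3, and 0.0659 and 0.128 FPKM at P7. It fell by 2.28 ± 0.41 (SE; limma adjusted p = 0.0114), and with the library set in the model its limma adjusted p was 0.0512. TCONS_00059174 (chr8:109034056-109034747) followed the same course at a lower level, with 2.07, 1.04 and 0.597 FPKM at P0, 0.779, 0.524 and 0.391 FPKM at P3, and 0.0799 and 0 FPKM at P7 (log2 change -2.27 ± 0.47 SE, limma adjusted p = 0.0255).

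Among features of this course that were chosen after their values were seen, NONMMUT064276 (chr7:149761434-149764051) was the most abundant, at 12.1 and 14.2 FPKM in the P7 libraries, against 25.9, 33.6 and 36.5 FPKM in the P3 libraries. It had 92.4, 46.7 and 58.9 FPKM at P0, where its mean was the highest of the 57, and fell by 1.27 ± 0.23 (SE; limma adjusted p = 0.0116). NONMMUT004754 (chr10:12810497-12844821) had 0.6999 and 1.07 FPKM at P7, against 4.303, 2.84 and 3.98 FPKM at P3, after 6.59, 4.91 and 5.31 FPKM at P0. It fell by 1.96 ± 0.31 (SE; limma adjusted p = 0.00331).

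The largest group, 26 of the 57, stood within 1.5 times of the P3 mean at P0 and was lower at P7. TCONS_00063989 (chrX:131219697-131222633) had 1.24, 1.02 and 1.105 FPKM at P0, 1.08, 1.31 and 1.504 FPKM at P3, and 0.111 and 0.161 FPKM at P7. The P0 and P3 libraries overlapped, and both P7 libraries lay below all of them (log2 change -2.56 ± 0.41 SE, limma adjusted p = 0.00396). NONMMUT005166 (chr10:30559616-30561821) behaved likewise, with 0.572, 0.789 and 0.575 FPKM at P0, 0.617, 0.543 and 0.3403 FPKM at P3, and 0.0125 and 0.0486 FPKM at P7, and it fell by 2.18 ± 0.36 (SE; limma adjusted p = 0.00426).

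TCONS_00057445 (chr8:98201932-98224050) had 0.171 and 0.607 FPKM at P7, against 1.32, 1.87 and 2.23 FPKM at P3, and its P7 libraries differed more from each other, in proportion, than its P3 libraries. It fell by 2.09 ± 0.44 (SE; limma adjusted p = 0.0272), and the limma adjusted p was 0.498 without RV P7 replicate 1. Abundant members of this group, chosen after their values were seen, changed less. NONMMUT059852 (chr7:6656616-6658546) had 17.5 and 19.99 FPKM at P7, against 38.8, 38.2 and 40.2 FPKM at P3, and fell by 1.06 ± 0.16 (SE; limma adjusted p = 0.00291). TCONS_00016402 (chr13:67001552-67002330) had 20.3 and 29.2 FPKM at P7, against 39.3, 62.7 and 37.6 FPKM at P3 (log2 change -0.89 ± 0.20 SE, limma adjusted p = 0.0402). Its highest P3 value was that of replicate 2, the library that stands apart, and the other P3 libraries still lay above both P7 libraries.

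The remaining 18 were highest at P3. Of these, 6 returned at P7 to within 1.5 times of their P0 mean and 12 went below it. TCONS_00040197 (chr4:6631710-6639578) had 0.0667, 0 and 0.131 FPKM at P0, 1.01, 0.993 and 0.5005 FPKM at P3, and was listed at 0 in both P7 libraries (limma adjusted p = 0.00305). All P3 libraries lay at 0.5005 FPKM or more and all P0 libraries at 0.131 FPKM or less, and no fold is given against libraries at 0. NONMMUT059684 (chr7:3436096-3436379) had 1.97, 3.49 and 1.55 FPKM at P0, 4.25, 4.85 and 4.44 FPKM at P3, and 0.877 and 0.943 FPKM at P7, and fell by 2.19 ± 0.31 (SE; limma adjusted p = 0.002096). Its values correspond to an implied 4.5 and 5 fragments in the P7 libraries, against 23.5, 19 and 21 in the P3 libraries.

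TCONS_00043265 (chr4:116547743-116549236) had 0.563, 0.161 and 0.2398 FPKM at P0, 0.876, 0.559 and 0.442 FPKM at P3, and 0.03703 and 0.0359 FPKM at P7 (log2 change -2.37 ± 0.42 SE, limma adjusted p = 0.00899). The highest P0 library lay within the range of the P3 libraries, and every P0 and P3 library exceeded both P7 libraries. TCONS_00038945 (chr3:68668551-68669382) had 0.0332 and 0.0644 FPKM at P7, against 0.308, 0.829 and 0.6496 FPKM at P3, with a P0 mean of 0.1797 FPKM (log2 change -2.15 ± 0.44 SE, limma adjusted p = 0.0255). NONMMUT069113, for which no position is given, had 0 and 0.0648 FPKM at P7, against 0.341, 0.834 and 0.399 FPKM at P3, with a P0 mean of 0.219 FPKM (log2 change -2.20 ± 0.43 SE, limma adjusted p = 0.0183). In both, RV P3 replicate 2 held the highest value, and without it the limma adjusted p was 0.0911 and 0.0742 in that order.

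At higher levels, and chosen after their values were seen, NONMMUT016807 and NONMMUT016806 share 1 position, chr13:29040913-29043540. NONMMUT016807 had 18.9, 16.7 and 18.03 FPKM at P0, 31.5, 36.5 and 31.3 FPKM at P3, and 18.5 and 15.8 FPKM at P7, so that the P0 and P7 libraries overlapped and the P3 libraries stood above both. It fell by 0.95 ± 0.17 (SE) after P3 (limma adjusted p = 0.0104). NONMMUT007218 (chr10:106370573-106373008) had 1.68, 1.75 and 1.799 FPKM at P0, 4.404, 4.66 and 3.92 FPKM at P3, and 1.24 and 0.7697 FPKM at P7, ending below its level at birth (log2 change -2.03 ± 0.29 SE, limma adjusted p = 0.002096). TCONS_00051827 (chr7:3424525-3425368), a neighbour of NONMMUT059684, had 5.98, 4.91 and 4.28 FPKM at P0, 15.9, 11.99 and 10.1 FPKM at P3, and 5.74 and 3.52 FPKM at P7 (log2 change -1.45 ± 0.31 SE, limma adjusted p = 0.0277).

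**Figure D2:**
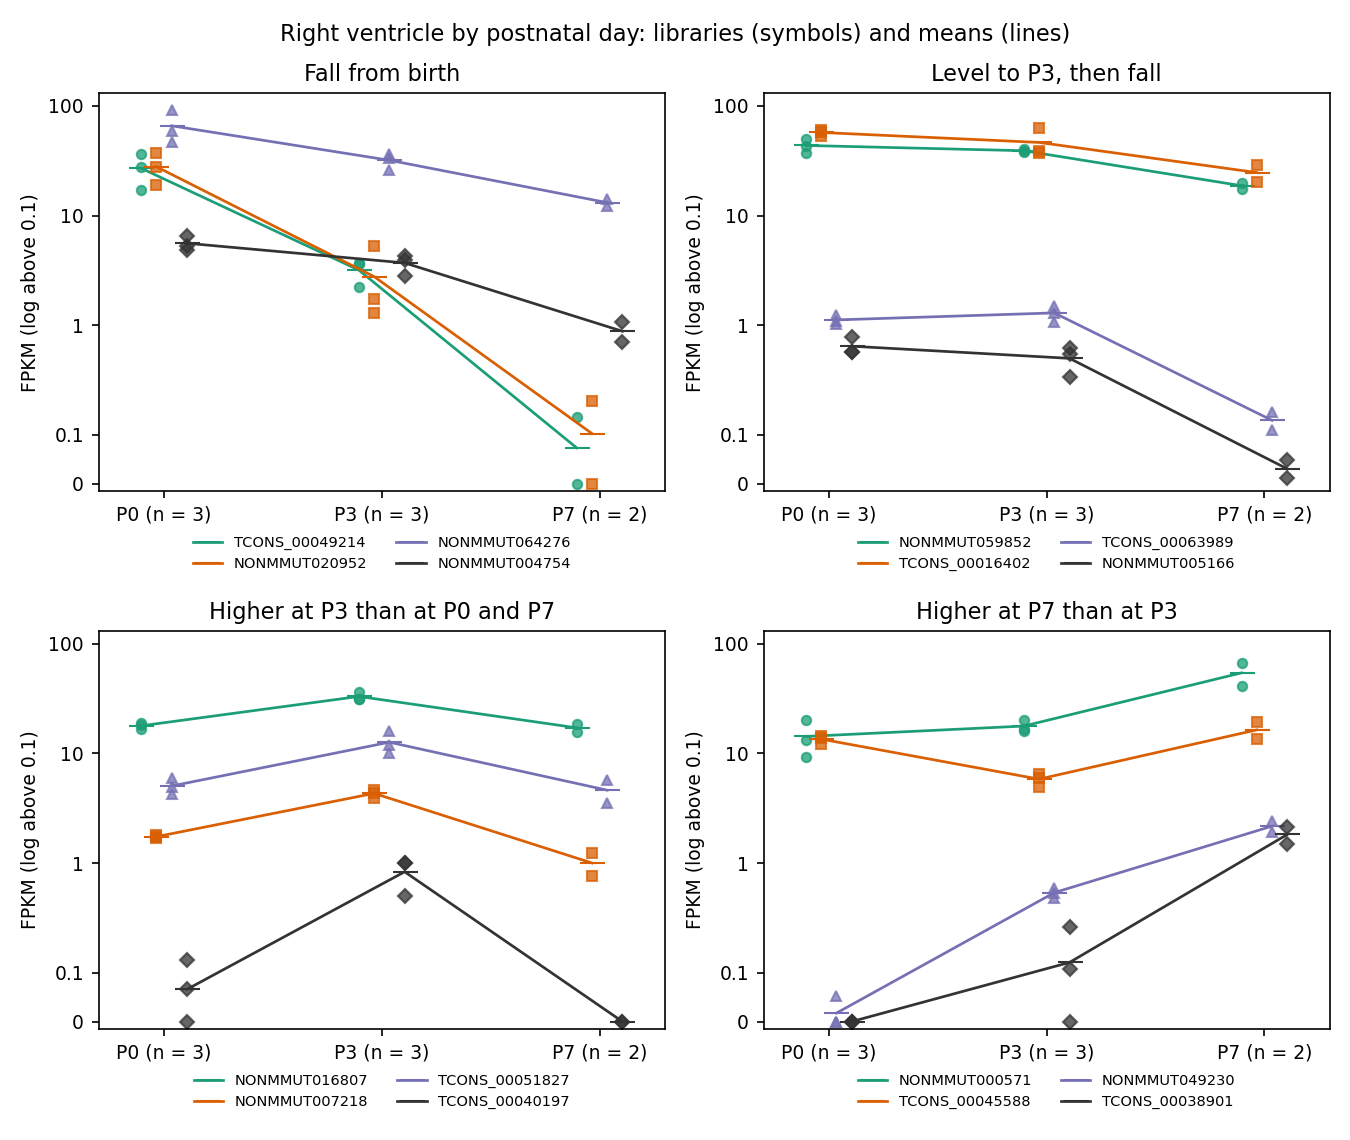
FPKM of 16 called features in the RV at P0, P3 and P7, in 4 panels by course, with symbols for single libraries and lines through the group means, on an axis that is logarithmic above 0.1. The P3 to P7 step separates every feature shown. In the panels of features that fell, P0 lies above P3, level with it or below it depending on the panel. In the panel of features that rose, it depends on the feature.

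The features that rose also differed in where they stood at birth. The RV mean at P0 was lower than at P3 by more than 1.5 times in 10 of the 25, within 1.5 times in 9, and higher by more than 1.5 times in 6. NONMMUT029111 (chr17:32044822-32046318) was listed at 0 in all 3 RV libraries at P0 and had 1.25 and 1.14 FPKM at P7, against 0, 0 and 0.155 FPKM at P3. Only RV P3 replicate 3 held a value above 0 at P3, and the log2 change was 3.24 ± 0.41 (SE; limma adjusted p = 0.000661). TCONS_00038901 (chr3:63285069-63287868) was listed at 0 in all 3 RV libraries at P0 too, and had 1.51 and 2.14 FPKM at P7, against 0, 0.264 and 0.109 FPKM at P3 (log2 change 3.27 ± 0.45 SE, limma adjusted p = 0.00185). It was still called without any one of the 5 libraries, as was NONMMUT029111, with limma adjusted p of at most 0.0278 and 0.0220 in that order.

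The largest rise was that of TCONS_00037220 (chr3:57754558-57783584), with 1.87 and 0.943 FPKM at P7, against 0.151, 0 and 0 FPKM at P3, and 0 in all 3 libraries at P0 (log2 change 3.40 ± 0.54 SE, limma adjusted p = 0.00386). Its call was lost without RV P7 replicate 1, the library with its higher value (limma adjusted p = 0.138). TCONS_00037219 has the same start and end and also rose, with 0.899 and 1.07 FPKM at P7, against 0.136, 0.165 and 0.363 FPKM at P3 (log2 change 1.82 ± 0.41 SE, limma adjusted p = 0.0453). Rows with the same bounds can share reads, and the 2 rises are not independent.

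TCONS_00014813 (chr13:53111296-53113855) had 0.0673, 0.1801 and 0 FPKM at P0, 0.246, 0.653 and 0.3605 FPKM at P3, and 2.49 and 2.73 FPKM at P7. The P7 values were close together and well above the highest P3 value, that of replicate 2 (log2 change 2.46 ± 0.51 SE, limma adjusted p = 0.0272). With the library set in the model its log2 change was 1.82 and the call was lost (limma adjusted p = 0.0817), and within the low set the change was 1.85. NONMMUT049230 (chr4:119963955-119976497) had 0, 0.0523 and 0 FPKM at P0, 0.593, 0.538 and 0.484 FPKM at P3, and 2.42 and 1.93 FPKM at P7, with no overlap between any of the ages (log2 change 1.83 ± 0.33 SE, limma adjusted p = 0.0114). NONMMUT020733 (chr14:51513316-51515212) had 1.62 and 1.13 FPKM at P7, against 0.2704, 0.0382 and 0.316 FPKM at P3, and only RV P0 replicate 2 held a value above 0 at P0 (log2 change 2.39 ± 0.47 SE, limma adjusted p = 0.0183). Its P3 values were uneven, with replicate 2 the lowest, and correspond to an implied 10, 1 and 10 fragments, against 55.5 and 40 at P7.

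NONMMUT042397, for which no position is given, had 1.09 and 1.71 FPKM at P7, against 0.104, 0.221 and 0.244 FPKM at P3 (log2 change 2.38 ± 0.45 SE, limma adjusted p = 0.0139). NONMMUT000316, also without a position, had 2.397 and 2.68 FPKM at P7, against 0.821, 0.774 and 0.4404 FPKM at P3, and 0.523, 0.9201 and 0.551 FPKM at P0 (log2 change 1.80 ± 0.40 SE, limma adjusted p = 0.0405). The first was also scarce at P0, with 0, 0.122 and 0.112 FPKM, while the second was level between P0 and P3. The call of NONMMUT000316 was lost whichever RV library at P7 or P3 was left out, with limma adjusted p between 0.0752 and 0.269. TCONS_00048412 (chr6:31291145-31291914) had 0.683 and 0.835 FPKM at P7, against 0.133, 0 and 0.07799 FPKM at P3 (log2 change 2.41 ± 0.48 SE, limma adjusted p = 0.0206). TCONS_00035070 (chr2:77150933-77155166) had 0.555 and 0.958 FPKM at P7, against 0.179, 0.0633 and 0.131 FPKM at P3 (log2 change 1.93 ± 0.39 SE, limma adjusted p = 0.0222). Both stayed under 1 FPKM in every library. The values of TCONS_00048412 correspond to an implied 9.5 and 12 fragments at P7, against 2, 0 and 1 at P3.

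NONMMUT063992 (chr7:140939248-140945536) was the most abundant of the named features that rose, with 4.62 and 13.8 FPKM at P7, against 0.976, 2.27 and 1.67 FPKM at P3. Its 2 P7 libraries lay far apart, and the lower one was still above all P3 libraries (log2 change 2.29 ± 0.48 SE, limma adjusted p = 0.0272). The call was lost without RV P7 replicate 2, which held the high value (limma adjusted p = 0.278), and without RV P3 replicate 1 or 3. TCONS_00051613 (chr6:133053946-133054547) had 0.186, 0.648 and 0.0458 FPKM at P0, 0.0853, 0 and 0 FPKM at P3, and 0.597 and 0.8899 FPKM at P7. Its mean was lowest at P3, although the P0 and P3 libraries overlapped (log2 change 2.76 ± 0.58 SE, limma adjusted p = 0.0272).

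Features that rose at higher levels were outside the naming rule and are described because of their level, chosen after the values were seen. NONMMUT000571 (chr1:36587039-36588149) held the largest share of the summed level, with 41.5 and 67.2 FPKM at P7, against 20.4, 16.2 and 16.8 FPKM at P3, and had 9.38, 20.1 and 13.4 FPKM at P0. The P0 and P3 libraries overlapped and both P7 libraries lay well above them (log2 change 1.57 ± 0.29 SE, limma adjusted p = 0.013). TCONS_00045588 (chr5:122559392-122563765) had 13.95, 14.3 and 12.3 FPKM at P0, 4.96, 6.52 and 6.03 FPKM at P3, and 13.6 and 19.2 FPKM at P7. It was low at P3 alone, and its rise of 1.47 ± 0.17 (log2, SE) had the smallest limma adjusted p of the 25, 0.000451. Of the 6 features that were higher at P0 than at P3, it and NONMMUT034576 (chr19:36688542-36780131) came back to within 1.5 times of the P0 mean, and the other 4 ended above it.

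The same step was measured in the LV, whose libraries are in neither RV group but share the common model and its variance with them. Age and library set were partly confounded there in the same way, so a match between the ventricles does not tell age from set. In the LV, 148 features were called, 1.34% of those tested, with 30 higher at P7 and 118 lower at P7. All 25 features that rose in the RV and all 57 that fell had the same sign in the LV, where 68.3% of all features tested lay below 0. Of them, 11 and 33 were called there too, beside 0.271% of all features called higher and 1.07% called lower in the LV. When only LV libraries entered the model, 9 and 16 of them were called, beside 0.199% and 0.28% of all features. The LV groups did not overlap, in the same direction, for 19 of the 25 and 47 of the 57, beside 3.92% and 13.8% of all features tested, and for 0 in the opposite direction. When only the 5 RV libraries entered the model, 17 features were called, 0.153% of those tested. The LV groups did not overlap, in the same direction, for 2 of the 2 of these that rose and 13 of the 15 that fell. The LV count of calls was itself sensitive, at 18 and 37 when LV P3 replicate 1 or 3 was left out, and at 96, 56 and 52 when LV P7 replicate 1, 2 or 3 was left out.

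Changes of the RV members were smaller in the LV, as the choice of members in the RV favours. Over the 25 the median log2 change was 1.91 in the RV and 1.20 in the LV, and over the 57 it was -1.45 in the RV and -0.99 in the LV, where both medians include features listed at 0 in one group. Chosen in the LV instead, the 30 features had medians of 0.85 in the RV and 1.40 in the LV, and the 118 had -0.96 in the RV and -1.38 in the LV. Thus whichever ventricle chose the features showed the larger change. Of these, 25 of the 30 and 98 of the 118 did not overlap in the RV in the same direction, which is 83.3% and 83.1%, beside 5.09% and 20.5% of all features tested.

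NONMMUT029111 had 1.596, 2.41 and 2.16 FPKM in the LV at P7, against 0, 0 and 0.0721 FPKM in the LV at P3 (log2 change 4.15 ± 0.36 SE, limma adjusted p = 3.50e-06). TCONS_00038901 had 3.68, 4.49 and 2.198 FPKM in the LV at P7, against 0.194, 0.192 and 0.102 FPKM at P3 (log2 change 3.72 ± 0.40 SE, limma adjusted p = 6.70e-05). TCONS_00049214 was listed at 0 in all 3 LV libraries at P7, against 0.878, 1.01 and 0.537 FPKM at P3 (limma adjusted p = 7.22e-05). These 3 changed in both ventricles without overlap.

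TCONS_00043265 fell in the RV and had 0.508, 0.403 and 0.331 FPKM in the LV at P7, against 0.767, 0.335 and 0.337 FPKM in the LV at P3. The LV groups overlapped (log2 change -0.11 ± 0.37 SE, limma adjusted p = 0.931), and the difference between the ventricles, RV minus LV, was -2.26 ± 0.56 (SE; unadjusted p = 0.000693, limma adjusted p = 1). TCONS_00051613 rose in the RV and had 0.327, 0.5001 and 0.684 FPKM in the LV at P7, against 0.531, 0.832 and 0.186 FPKM in the LV at P3, again with overlap (difference 2.67 ± 0.77 SE, limma adjusted p = 1). NONMMUT034576 had 0.909 and 0.66 FPKM in the RV at P7, against 0.211, 0.186 and 0.123 FPKM in the RV at P3. In the LV it had 0.5195, 0.371 and 0.479 FPKM at P7, against 0.438, 0.379 and 0.4302 FPKM at P3 (difference 1.59 ± 0.46 SE, limma adjusted p = 1). The RV libraries of NONMMUT034576 lay below its LV libraries at P3 and above them at P7. None of these RV minus LV differences passed the test over all features.

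**Figure D3:**
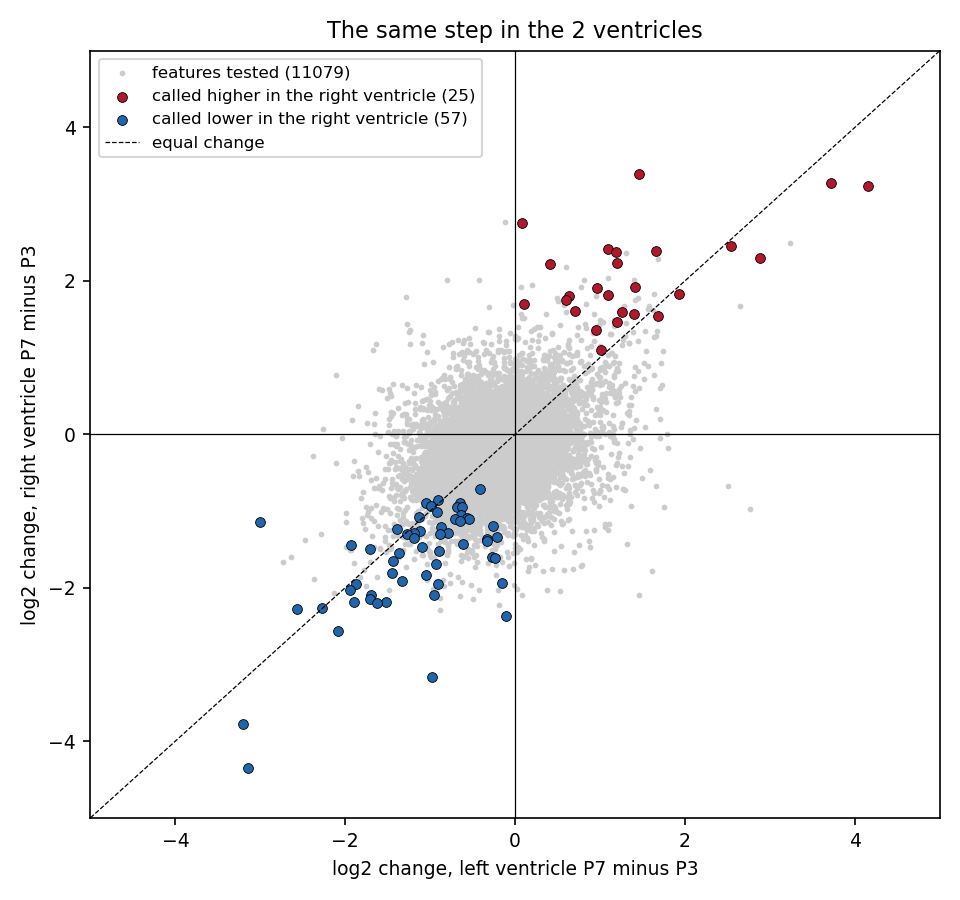
Log2 change, P7 minus P3, of each tested feature in the RV (vertical axis) and the LV (horizontal axis), with the 25 features that rose and the 57 that fell in the RV coloured. All coloured points lie where the sign is equal in both ventricles, and Pearson's r over all 11079 features was 0.35.

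Tested directly, the step differed between RV and LV for 0 of 11079 features in limma, where 426, or 3.85%, had an unadjusted p under 0.05. Among the 82 called in the RV, 7 that rose and 11 that fell had an unadjusted p under 0.05 for the difference. The RV change that chose them is also part of this difference, so the choice itself favours a larger share than over all features. The smallest adjusted p, 0.0872, was that of TCONS_00022229 (chr16:24097633-24098149), which had 0 and 0 FPKM in the RV at P7, against 0.0496, 0 and 0.174 FPKM in the RV at P3. In the LV it had 0.544, 0.349 and 0.8501 FPKM at P7, against 0, 0.051 and 0 FPKM at P3. NONMMUT011874, without a position, fell in both ventricles, with 4.61 and 2.84 FPKM in the RV at P7, against 7.32, 11.9 and 6.13 FPKM in the RV at P3, and 2.19, 1.49 and 1.91 FPKM in the LV at P7, against 16.5, 14.9 and 15.2 FPKM in the LV at P3. Its log2 change was -1.14 in the RV and -3.01 in the LV (difference 1.86 ± 0.35 SE, limma adjusted p = 0.234). Without RV P3 replicate 2, these 2 features were called for the difference, with limma adjusted p of 0.0184 and 0.0195.

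How the library set bore on the RV step was measured by adding it to the model. With the set as a term, 39 features were called, or 0.352%, 12 higher and 27 lower at P7, and 35 of them were among the 82. All 82 kept their sign, 11 of the 25 and 24 of the 57 kept their call, and the medians were 1.78 and -1.40. Of the 25 named features, 14 kept their call; TCONS_00051613, TCONS_00014813, TCONS_00048412, NONMMUT063992, TCONS_00035070, TCONS_00037219, NONMMUT000316, NONMMUT020956, TCONS_00059174, NONMMUT069113 and TCONS_00057445 lost it, at limma adjusted p between 0.0511 and 0.167. The set itself had a called coefficient for 18 of the 11079 features, 0.162%, and for 0 of the 82. Within the low set alone, RV P3 replicate 2 is the single RV library at P3. That fit gives the RV at P3 the spread of the remaining groups, which is an assumption. The sign of the 82 could not change in it, because in each of them both P7 libraries lay beyond every P3 library. Their medians within the low set were 1.85 and -1.42. There 2 features were called, 0.0181% of those tested, NONMMUT029111 and TCONS_00049214. The median over all features tested was -0.12 with the set term and -0.05 within the low set, against -0.22 without either. It also moved with single libraries, to -0.10 without RV P7 replicate 1 and -0.34 without RV P7 replicate 2. What made the displacement of the whole distribution smaller was not tested.

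RV P3 replicate 2 gave a further reading. Among 37 features called without it, 10 higher and 27 lower at P7, it lay beyond both P7 libraries on the side of the other P3 libraries in 10 of the 10 and 25 of the 27. Over all features tested the same was true of 46.3% of those above 0 and 45.9% of those below 0. With the set as a term and without RV P3 replicate 2, where every remaining RV library at P3 is of the high set and the LV and P0 libraries alone separate age from set, 5 features were called. These were TCONS_00049214, TCONS_00038901, NONMMUT029111 and TCONS_00045588 from the 82, and NONMMUT011653.

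**Figure D4:**
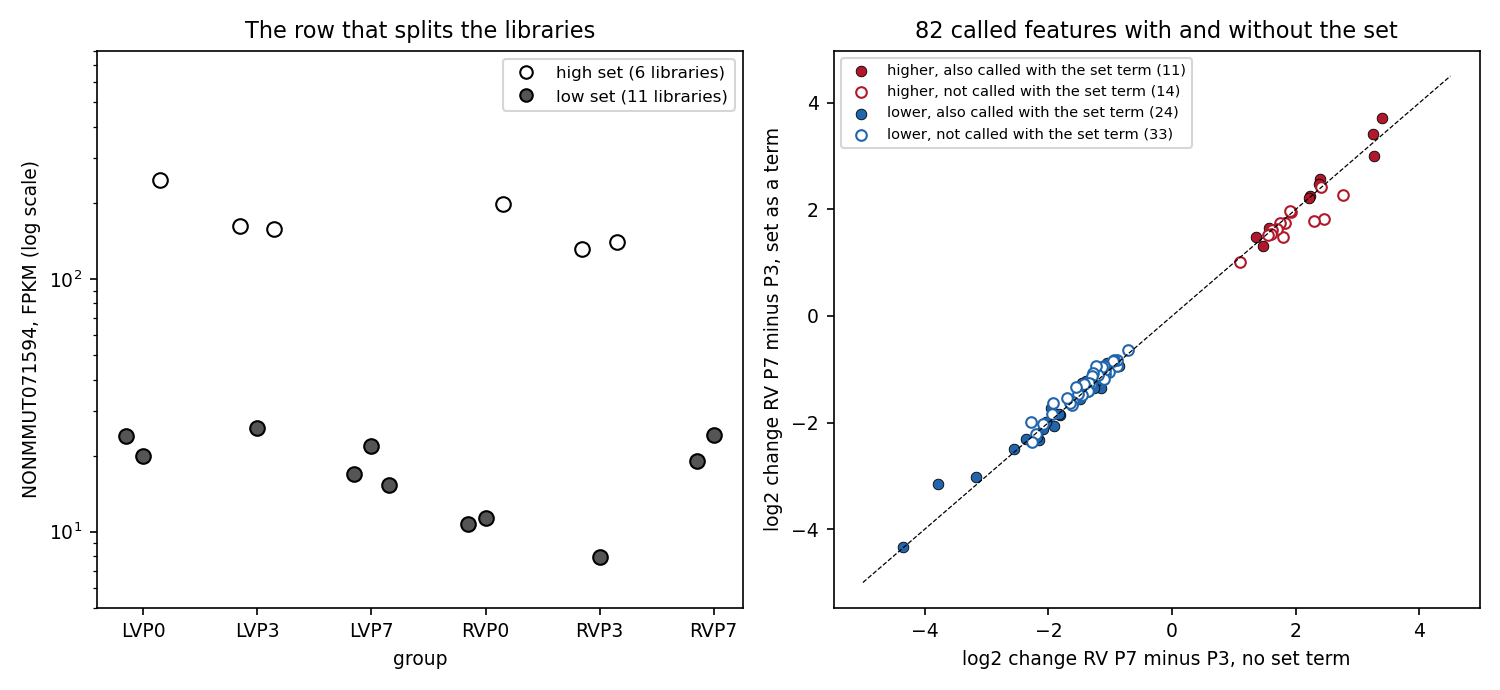
Left, FPKM of NONMMUT071594 in every library by group on a log axis, with 6 libraries (open) between 132 and 247 and 11 (filled) between 7.93 and 25.8. Right, log2 change, P7 minus P3, of the 82 called features with the set as a term (vertical axis) and without it (horizontal axis); all keep their sign, 2 move by more than 1.5 times (TCONS_00014813 and NONMMUT020952), and 35 keep their call (filled).

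Some of the changed features lay close together. Within 50 kb of one another there were 8 neighbourhoods holding 17 of the called features, and each changed in 1 direction. How often any tested features lie this close was not measured. The counts above or below 0 that follow include the called rows. Over all features tested, 68.2% lay below 0 and 31.8% above. The tables give no strand, and rows in a neighbourhood often overlap and can share reads, so these are not independent observations. On chromosome 14, NONMMUT020952 and NONMMUT020956 both fell, while NONMMUT020955 (chr14:55597685-55610438), whose span contains NONMMUT020956, had 3.704 and 5.77 FPKM at P7, against 2.79, 1.35 and 3.52 FPKM at P3. It was not called (log2 change 0.93 ± 0.49 SE, limma adjusted p = 0.495), and its direction was opposite to that of the row inside it. Of 7 features tested there, 6 lay below 0.

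A second neighbourhood on chromosome 14 rose. NONMMUT020732 (chr14:51508265-51510242) had 0.559 and 0.609 FPKM at P7, against 0.1297, 0.128 and 0.121 FPKM at P3, and was listed at 0 in all 3 RV libraries at P0 (log2 change 1.59 ± 0.36 SE, limma adjusted p = 0.0468). Its neighbour NONMMUT020733 was described above, and 4 of the 4 features tested there lay above 0. NONMMUT020729 (chr14:51490039-51500053), which precedes both on the chromosome, had 2.3 and 2.53 FPKM at P7, against 2.03, 2.27 and 2.53 FPKM at P3, with overlap between the ages. The change was thus called for the rows further along the chromosome and not for this one.

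On chromosome 6 the rises were of 3 features over 1 span. NONMMUT056177 and NONMMUT056198 both have the position chr6:31169939-31292095, were listed at 0 in all 3 P3 and all 3 P0 libraries of the RV, and had 0.24 and 0.232 FPKM and 0.288 and 0.1395 FPKM at P7 (limma adjusted p = 0.0499 and 0.0302). TCONS_00048412 lies inside that span. Of 8 features tested there, 6 lay above 0.

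On chromosome 17, 17 of 18 tested features lay below 0 and 2 were called. NONMMUT028254 (chr17:12934177-13053048) had 1.97 and 3.46 FPKM at P7, against 7.35, 5.42 and 6.88 FPKM at P3 (log2 change -1.28 ± 0.25 SE, limma adjusted p = 0.0203). NONMMUT028255 (chr17:13014682-13016805), inside that span, had 6.99 and 12.7 FPKM at P7, against 22.7, 20.8 and 18.8 FPKM at P3 (log2 change -1.13 ± 0.22 SE, limma adjusted p = 0.0198). In both, P7 replicate 1 was the lower of the 2 and no P7 library reached the lowest P3 value.

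On chromosome 8, TCONS_00058571 (chr8:59783086-59799700) had 4.78 and 4.82 FPKM at P7, against 10.4, 12.98 and 10.5 FPKM at P3 (log2 change -1.21 ± 0.18 SE, limma adjusted p = 0.00228). NONMMUT065691, which differs from it by under 100 bases at each end, had 2.47 and 4.06 FPKM at P7, against 9.51, 5.84 and 7.87 FPKM at P3 (log2 change -1.24 ± 0.26 SE, limma adjusted p = 0.0289). On chromosome 7, TCONS_00051827 and NONMMUT059684 fell together, and 4 of the 4 features tested there lay below 0. The other 2 neighbourhoods were the pairs of rows with 1 position each, on chromosomes 13 and 3, given above.

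**Figure D5:**
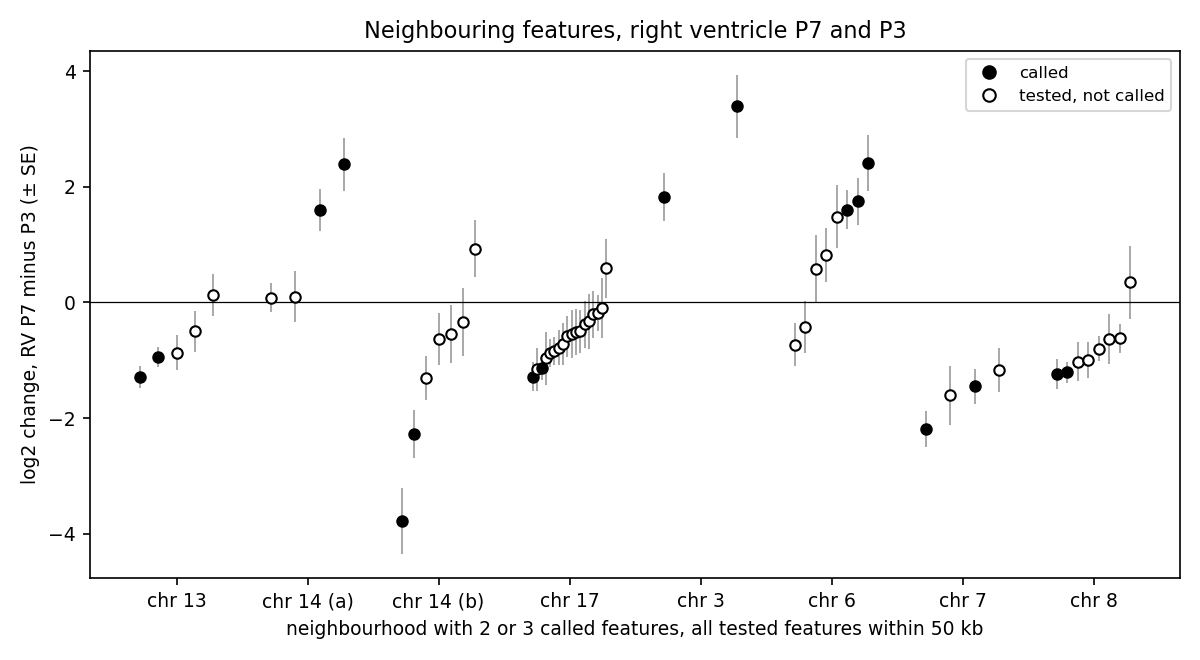
Log2 change, P7 minus P3, in the RV (± SE) of every tested feature in the 8 neighbourhoods, ordered by value within each; filled points were called. In each neighbourhood the called features lie on 1 side of 0, and most of their uncalled neighbours lie on the same side. Of all features tested, 68.2% lay below 0.

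By what the tables record of each feature, calls were most frequent among abundant rows. When features were ranked by mean level and divided into 4 equal groups, the highest group held 57 of the 82, 2.06% of its 2770 features, and the lowest held 4, or 0.144%. Assembler identifiers had 28 calls among 1672 features, 1.67%, and NONCODE identifiers 54 among 9407, 0.574%, where the median of the mean level was 0.409 FPKM and 0.152 FPKM. Among 1729 features that span under 1 kb, 2 rose and 15 fell (0.983% called), and among 1610 that span over 10 kb, 9 rose and 9 fell (1.12%). Over all features tested, 0.226% rose and 0.514% fell. Chromosome 7 had the highest share, 9 calls among 645 features (1.40%), 1 higher and 8 lower at P7. The X chromosome had 4 among 294 (1.36%), all of them lower at P7, and chromosome 15 had 0 among 415, beside 0.74% of all features. The median log2 change was -0.20 for the short and -0.17 for the long features, and -0.29 for the X chromosome, all below 0 like the median of all features.

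The most abundant rows did not pass the test. NONMMUT071578 (chrM:1094-3703), a mitochondrial row that begins at the start of the large ribosomal RNA gene mt-Rnr2, had 22284 and 19933 FPKM at P7, against 14457, 17589 and 16039.9 FPKM at P3. All P7 libraries lay above all P3 libraries, with a log2 change of 0.40 ± 0.12 (SE; limma adjusted p = 0.182). A row with the bounds of the small ribosomal RNA gene mt-Rnr1 (chrM:70-1024) had 1732 and 1883 FPKM at P7, against 1696, 2827 and 1591 FPKM at P3, and these overlapped (log2 change -0.12 ± 0.33 SE, limma adjusted p = 0.9296). Its sign turned with the scaling: with a common median for every library its log2 change was 0.12, and that of NONMMUT071578 was 0.64.

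NONMMUT071605 (chrM:15356-16294) had 581 and 589 FPKM at P7, against 492, 715 and 451 FPKM at P3 (limma adjusted p = 0.869). TCONS_00065404 (chrX:148192453-148192669) had 280.4 and 318 FPKM at P7, against 312, 298 and 288 FPKM at P3 (limma adjusted p = 1). In both, the ages overlapped. NONMMUT062940, without a position, had 49.1, 35.9 and 39.6 FPKM at P0, 187, 265 and 229 FPKM at P3, and 316 and 231 FPKM at P7. Its P0 libraries lay far below the others, and its P3 and P7 libraries overlapped (log2 change 0.27 ± 0.18 SE, limma adjusted p = 0.613).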

How the data were processed

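Total RNA of LV and RV was sequenced strand-specifically with paired ends, per the labels' protocols. STAR 2.4.0j and the build mm10 are named per the submitters' processing notes. Which annotation, counter and scaling were used is not given in the sources used here. Deposited tables do not name their unit, and the authors' values were read as FPKM. Low values (at most 40 steps) were multiplied by the feature's span. Between 64.3% and 67.9% of them per library lay within 0.02 steps of a whole multiple of a step fitted to that library. That step was taken as 0.5 fragments, an assumption on which the implied depth and all implied fragments rest. TPM would show such steps too, so FPKM is an inference. Positions reach 152408430 on chromosome 7, past the last gene of the mm10 annotation GENCODE M21, which ends at 145324086, and 40 rows lie on names ending in _random. They were therefore taken as mm9, and none was converted. Because no mm9 annotation was used here, only mitochondrial rows were compared with annotated genes, and no sequences are shown.

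A row was tested when 2 or more libraries reached 0.1 FPKM. Tests used limma 3.58.1 (R 4.3.3). Its input was log2(FPKM + 0.1), the model had 1 mean for each group, all 17 libraries entered it, and robust moderation was applied along a variance trend. P-values were two-sided, and the Benjamini-Hochberg adjusted threshold was 0.05. Log2 changes on this scale understate the change of low features. The fit was tested on simulated data. Named features are, per direction, up to 12 called features with the largest log2 change, above the median level and without overlap of the groups, rows that repeat their position, and the 5 most abundant features; any other feature was chosen after its values were seen, including neighbours of called features and those with the smallest p of a difference. The members, lists and rules were chosen with earlier results of these data known. Library sets were defined by NONMMUT071594 above or below 100 FPKM. Alternatives were other pseudocounts, filters, scaling, variance models, samples, sets and blocks.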

Additional observations from a re-analysis of the deposited data

How the results depend on the processing

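None of the 25 named features that were called in the RV changed sign under any alternative run, although many of these runs could not change it. The counts of calls moved. For the RV step the 82 calls became 47 with no variance trend, 39 with the library set as a term, 2 within the low library set, and 17 with only the 5 RV libraries at P7 and P3 in the model, and between 12 and 88 with 1 library left out. All 82 kept their sign with the set term, which could have changed it. With no trend, with only the groups compared or without an LV library, the log2 changes stay the same by construction. Within the low set, with another pseudocount or filter, or without an RV library, the lack of overlap between the groups fixed the sign. With a common median the shift was smaller than any of the 82 changes. Counts between 63 and 118 came from pseudocounts of 0.01 and 1, from no filter, from a filter at 1 FPKM, from a common median and from summing rows with 1 position. For the LV step the 148 calls became 53 with no filter, 74 with no trend, 51 with the set term, 3 within the low set, 53 with only the groups compared, and between 18 and 191 with 1 library left out. The difference between ventricles gave 0 calls, 3 with no filter (NONMMUT005393, NONMMUT070051 and NONMMUT070227) and between 0 and 2 with 1 library left out. Of the alternatives added after the data were seen, the set term without RV P3 replicate 2 gave 5 calls for the RV step, 44 for the LV step and 2 for the difference, and the set term with a common median gave 35 for the RV step and 50 for the LV step. The causes of these moves were not tested. NONMMUT071578, not called in the RV, was called without LV P3 replicate 1 (limma adjusted p = 0.0369).

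For same-numbered libraries the correlation of deviations from the group means was -0.063 and -0.087 between RV P7 and RV P3, between 0.069 and 0.083 for RV P7 with LV P7, and between 0.045 and 0.172 for RV P3 with LV P3. It was over 0.1 in 2 of 7 pairs, and the labels do not say whether equal numbers share animals. LV and RV libraries of the same age and number were always in the same library set, so they may be linked, which was not tested. The main fit did not pair them and treats them as independent. The replicate block gave 66 calls for the RV step (21 higher, 45 lower, 62 of them among the 82), 156 for the LV step and 0 for the difference; a block of age and number together gave 0 for the difference. At a low FPKM or over a short feature a value can rest on few fragments, and depth then limits its precision. With 2 libraries at P7 a p that misses the threshold does not show that a feature was level.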
